A study of Arabidopsis thaliana with 12 samples.

Results

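LAS (AT1G55580), IAA31 (AT3G17600) and AGL54 (AT5G27090) are 3 developmental regulators of Arabidopsis thaliana, each named alone by 1 array probe. They were chosen with earlier results of these data known. They are 3 of the 689 genes with such a probe, on an array of 3439 probes. The samples were total RNA of wild-type plants of the ecotype Wassilevskija. In 6 samples the plants had received a water treatment of a length the labels do not give, and in 6 samples they had spent 30 min in MS, a plant salt medium, with 60 mM sucrose. The labels give neither tissue nor age, and salts and sucrose were supplied together, so their shares in a difference cannot be told apart. All 12 samples had a value above 0 for each of the 3 genes.

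LAS encodes a transcriptional regulator of the GRAS family that acts in the boundary between the shoot meristem and young leaves, where axillary meristems, the source of side shoots, arise. Plants without LAS form few or no axillary meristems during vegetative growth. IAA31 belongs to the Aux/IAA proteins, which bind auxin response factors and hold back the genes these control. Auxin relieves this by bringing Aux/IAA proteins to TIR1/AFB receptors through a short stretch called domain II, and IAA31 lacks the usual form of that stretch, as do its relatives IAA20 and IAA30. AGL54 encodes a protein with a MADS domain, the DNA-binding domain shared with the floral identity factors.

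In sucrose medium the LAS and AGL54 signals were higher than in water, and IAA31 was slightly lower compared with the rest of the array. After quantile normalisation, which gives every array the same distribution, LAS was 2.05-fold and AGL54 6.46-fold higher, while IAA31 was 1.20-fold lower (means of 6 samples per group). The limma test, adjusted by the Benjamini-Hochberg method over all 2915 probes tested, gave adjusted p = 1.71e-05 for LAS, 0.00642 for AGL54 and 0.0429 for IAA31. LAS and AGL54 kept direction and call under every alternative tried, with sizes that depended on the processing. IAA31 had a negative log2 fold change with every scaling tried, not always past the threshold, and a positive one without scaling. The size for AGL54 also rested on water replicate 2, without which it was 3.68-fold higher. A probe naming AGL54 together with AGL53 and AGL93 did not follow it, with a log2 fold change of -1.28 after normalisation. Among all probes tested, 64.4% passed the threshold of 0.05, 31.5% as higher and 32.9% as lower in sucrose medium, so passing it does not set these genes apart. In RNA of bulk samples a change in the number of cells of a type and a change in RNA per cell cannot be told apart. An increase of at least 2-fold past the threshold was less common, at 9.78% of the probes, and LAS and AGL54 were among these. LAS lay close to that limit, and its log2 fold change was below 1 in 6 of 23 alternatives, with 0.88 as the lowest. These were median centring, cyclic loess, 0.05 added before log2, and leaving out water replicate 5, water replicate 6 or sucrose replicate 3.

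The deposited values are intensities on a linear scale from 0 to 100 whose unit the sources used here do not give. Whole arrays differed between the groups. Array medians ran from 0.171 to 0.188 for water and from 0.422 to 0.459 for sucrose medium, a 2.49-fold difference of their means. These medians were taken over all 3439 probes with values of 0 counted. Over the tested probes, with 0 as missing, the median log2 fold change without scaling was 1.09. Deposited values are therefore given beside the position of each gene within its own array, expressed as a percentile among the 2805 probes with a value above 0 in all samples. Nothing in the labels tells whether the samples of a group are separate plants or repeat measurements, so the p-values cover only the spread seen here, part of which may be technical. The labels also leave out the dyes and whether a water and a sucrose sample were measured on 1 array, so a labelling difference between the groups cannot be told apart from the treatment. Precision is limited by the number of arrays. Of 21 marker loci for root, leaf mesophyll, shoot meristem, flower, seed and epidermis, 1 was measured on a probe of its own, the light-harvesting gene LHB1B2. Its deposited intensity was 13.0 ± 2.50 in water and 9.01 ± 1.82 in sucrose medium (SD, n = 6 each). After normalisation its log2 fold change was -0.29 (limma, adjusted p = 0.0980), with adjusted p from 2.28e-06 to 0.643 over the alternatives and a negative value in each. With the replicate number as a block it was past the threshold (adjusted p = 0.007 as a fixed block and 0.0319 as a random block). The tissue could not be checked further.

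The axillary meristem regulator LAS had deposited intensities of 0.208, 0.169, 0.198, 0.176, 0.166 and 0.157 in water replicates 1 to 6. In sucrose medium replicates 1 to 6 had 0.885, 0.812, 0.903, 0.894, 0.674 and 0.740. Every sucrose sample lay above every water sample, with a wide gap between the groups, and replicates 5 and 6 were the dimmest of both groups. The mean rose from 0.179 ± 0.020 to 0.818 ± 0.094 (SD, n = 6 each), a 4.57-fold ratio of means, and the ratio within same-numbered samples ran from 4.07 to 5.07. That ratio exceeds the 2.49-fold difference between the array medians.

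Within its array LAS moved from below the middle into the upper part. Its percentile was 32.6 to 46.8 in water, with a median of 39.6, and 59.4 to 75.2 in sucrose medium, with a median of 72.0. The mean difference was 29.7 percentile points (exact permutation test over samples, two-sided, p = 0.00216, the smallest value that 924 splits can give). Exchanging the labels only within same-numbered pairs gave p = 0.0312 for LAS, IAA31 and AGL54 alike, the smallest value that 64 arrangements allow (exact permutation test, two-sided). On the normalised log2 scale LAS was at -1.84 ± 0.18 in water and -0.80 ± 0.26 in sucrose medium (SD, n = 6 each). The log2 fold change was 1.04 ± 0.13 (SE), and 283 of the tested probes, 9.71%, had a larger one. All 6 same-numbered differences were positive, from 0.82 to 1.21. Their averages over replicates 1 and 2, 3 and 4, and 5 and 6 were 1.04, 1.14 and 0.92. Joining replicates in this way was a choice made here, as the labels give no such sets. Under the other scalings the log2 fold change of LAS was 0.93 with median centring, 0.92 with cyclic loess and 1.24 with a straight line through the quartiles. Without scaling it was 2.19, when the median over all tested probes was 1.09.

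AGL54, the MADS-domain gene, was near the bottom of the array in water and above its middle in sucrose medium. Its deposited intensities in water replicates 1 to 6 were 0.0611, 0.00216, 0.117, 0.0904, 0.102 and 0.0824. In sucrose medium they were 0.709, 0.628, 0.836, 0.869, 0.728 and 0.745. The groups did not overlap, and water replicate 2 lay far below the other water samples. The lowest sucrose value was several times the highest water value, and replicates 3 and 4 were the brightest in sucrose medium. The medians were 0.0864 in water and 0.736 in sucrose medium, and the same-numbered ratios ran from 7.14 to 11.6 apart from replicate 2, where the ratio was 291.

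The percentile of AGL54 ranged from 0.0535 to 23.9 in water, with a median of 13.0, and from 57.8 to 73.4 in sucrose medium, with a median of 64.3. The mean difference was 53.5 percentile points (exact permutation test, two-sided, p = 0.00216, again the smallest possible). On the normalised log2 scale the gene was at -3.65 ± 1.98 in water and -0.95 ± 0.23 in sucrose medium (SD, n = 6 each). The log2 fold change was 2.69 ± 0.73 (SE), and 16 of the tested probes, 0.549%, had a larger one. The size of this change rests in part on water replicate 2. Without that sample the log2 fold change was 1.88, or 3.68-fold, with adjusted p = 3.48e-06 (limma), and 52 of the 2900 probes then tested, 1.79%, had a larger one. The difference of the group medians over all samples was 1.87. Leaving out any of the other samples gave values up to 2.93.

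The wide AGL54 spread in water came from the same sample. Its SD of 1.98 in water on the log2 scale was exceeded by 0.377% of the tested probes, but without water replicate 2 the SD was 0.37 (n = 5) and was exceeded by 23.2%. Its SD of 0.23 in sucrose medium was exceeded by 40.4%. For LAS the corresponding shares were 64% and 33%, and for IAA31 75.5% and 51.5%. With 0.05 added to all intensities before the log2 transform, which shrinks differences among dim values, the log2 fold change of AGL54 was 1.75 (limma, adjusted p = 2.51e-05).

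**Figure D1:**
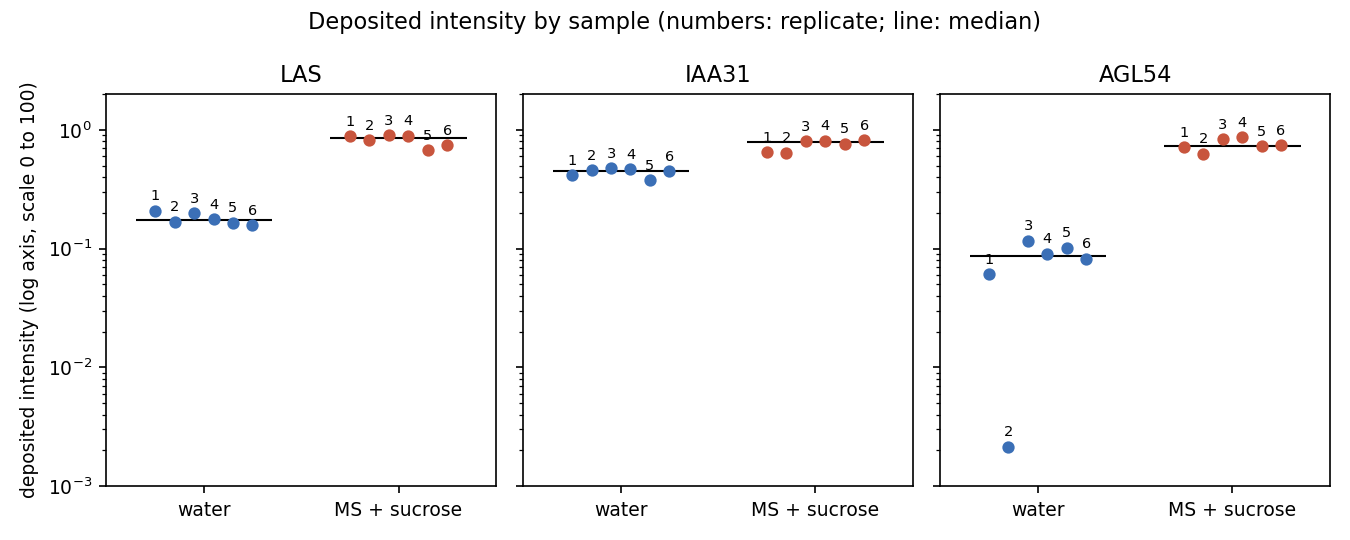
Deposited intensity (log axis, scale 0 to 100, unit not given) of LAS, IAA31 and AGL54 in each water and sucrose sample, with points numbered by replicate and lines at the group medians. For each gene all sucrose samples lie above all water samples, and AGL54 in water replicate 2, at 0.00216, lies far below the other points.

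IAA31, the Aux/IAA gene, was the member whose direction depended on whether the arrays were brought onto a common scale. Its log2 fold change was negative with every scaling tried and positive without scaling. Its deposited intensities were 0.413, 0.458, 0.477, 0.468, 0.375 and 0.449 in water replicates 1 to 6. In sucrose medium they were 0.648, 0.641, 0.805, 0.808, 0.765 and 0.813. As deposited, the groups did not overlap and sucrose was higher, with a mean of 0.747 ± 0.081 against 0.440 ± 0.039 (SD, n = 6 each). The 1.70-fold ratio of means was below the 2.49-fold difference between the array medians.

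Relative to the other probes IAA31 therefore went the other way. Its percentile in the array was 66.7 to 75.6 in water, with a median of 72.6, and 59.2 to 70.1 in sucrose medium, with a median of 67.5. The groups overlapped, and the mean difference was -6.67 percentile points (exact permutation test, two-sided, p = 0.0216). On the normalised log2 scale the gene was at -0.70 ± 0.15 in water and -0.97 ± 0.20 in sucrose medium (SD, n = 6 each), a log2 fold change of -0.26 ± 0.10 (SE). Sucrose replicates 1 and 2 were the lowest, both at -1.21, and water replicate 5 was at -0.94, below 3 of the sucrose samples.

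All 6 same-numbered differences of IAA31 were negative, but they were uneven, from -0.55 in replicate 2 to -0.01 in replicate 5. Their averages were -0.49 over replicates 1 and 2, -0.23 over 3 and 4, and -0.07 over 5 and 6. These sets of consecutive numbers were formed here and are not given by the labels. When samples 1 and 2, 3 and 4, and 5 and 6 of each group were averaged to 3 values, the difference did not pass the threshold (limma, adjusted p = 0.203; range over all alternatives 5.78e-06 to 0.203). It also failed to pass when any of 8 of the 12 samples was left out, with adjusted p from 0.0518 to 0.0928. These were water replicates 1, 2, 3, 4 and 6 and sucrose replicates 1, 2 and 5. Without scaling the log2 fold change of IAA31 was 0.76, against a median of 1.09 over all tested probes.

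**Figure D2:**
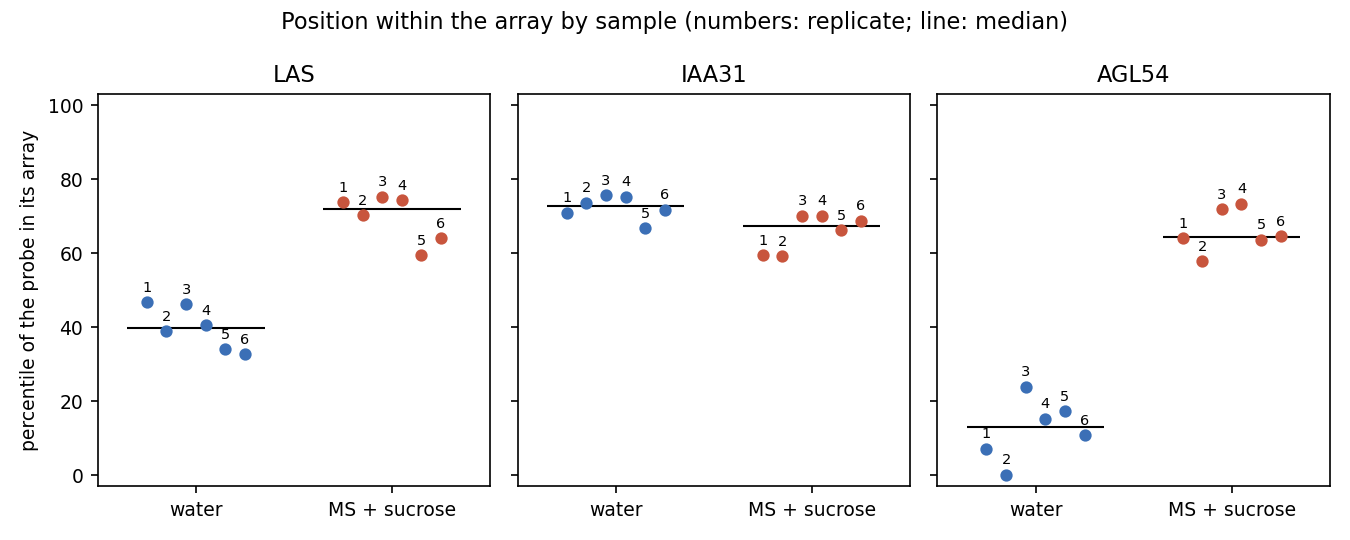
Percentile of each gene's probe within its own array (0 to 100, among 2805 probes) by sample, with points numbered by replicate and lines at the group medians. LAS and AGL54 rise from medians of 39.6 and 13.0 in water to 72.0 and 64.3 in sucrose medium without overlap, while IAA31 goes from 72.6 to 67.5 with overlapping groups.

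Set among all tested probes, LAS and AGL54 lay in the upper part of the distribution of log2 fold changes and IAA31 in its lower middle, with 61.7% of the probes above it. After normalisation 2 of the 3 genes had groups that did not overlap with sucrose higher, as had 21% of all tested probes. Counted on the deposited intensities it was 3 of 3 genes, as against 64% of all tested probes. Brightness moved with the unscaled differences over the whole array. With the tested probes divided into 4 bins of equal size by mean normalised level over the 12 samples, AGL54 fell in the second bin from the dimmest, and LAS and IAA31 in the third. Without scaling the median log2 fold changes of those bins were 1.36 and 1.18, and after quantile normalisation 0.07 and 0.04. The brightest bin had a median of 0.22 without scaling. The part of brightness in the differences of the 3 genes was not tested.

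**Figure D3:**
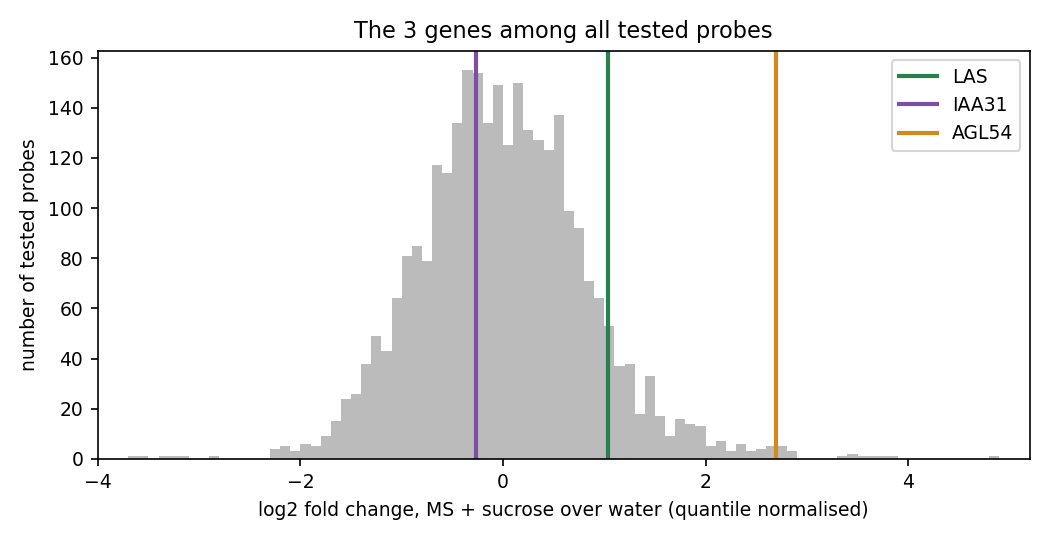
Number of tested probes by log2 fold change, sucrose medium over water after quantile normalisation, in bins of equal width over 2915 probes. The lines mark IAA31 at -0.26, LAS at 1.04 and AGL54 at 2.69.

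IAA31 and AGL54 were each also named by a second probe together with close relatives. These probes cannot be assigned to 1 gene, so they were read only beside the probes above. The probe naming IAA20, IAA30 and IAA31, which are Aux/IAA genes with an altered domain II, had deposited intensities of 1.28, 1.32, 1.08, 0.830, 1.21 and 0.980 in water. In sucrose medium it had 1.23, 1.21, 1.24, 1.17, 1.15 and 1.10, within the range of the water samples. After normalisation it was lower in sucrose medium, by limma with adjusted p = 0.00311 and a log2 fold change of -0.40 ± 0.10 (SE). All 6 same-numbered differences were negative, although the groups overlapped. With cyclic loess it did not pass (-0.22, adjusted p = 0.0873), nor with averaged samples (adjusted p = 0.0504; range over all alternatives 1.39e-06 to 0.414), and without scaling it was at 0.10. Its normalised direction was thus that of the probe naming IAA31 alone, and both reversed sign without scaling. A probe naming IAA20 and IAA30 was listed at 0 in all 12 samples.

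The probe naming AGL54 together with AGL53 and AGL93 did not follow the probe naming AGL54 alone. The 3 MADS-domain genes lie on the same chromosome, with 1 protein-coding gene between AGL53 and AGL54 and 14 between AGL54 and AGL93 in the assembly TAIR10.1. Deposited intensities of the shared probe were 0.137, 0.106, 0, 0.181, 0.0671 and 0.0761 in water replicates 1 to 6. In sucrose medium they were 0.0910, 0.114, 0.143, 0.112, 0.117 and 0.125. As deposited, the values of the groups were intermingled. On the normalised log2 scale, with the 0 left out, the water values (-3.19 to -1.79) all lay above the sucrose values (-4.08 to -3.53). After normalisation the log2 fold change of the shared probe, from 5 water values since the 0 was treated as missing, came to -1.28 ± 0.24 (SE; limma, adjusted p = 0.000629). With 0.05 added before log2 it did not pass (-0.60, adjusted p = 0.162; range over all alternatives 0.000170 to 0.624), and without scaling it was at 0.13. With the straight line through the quartiles it was at -4.45. The difference between the fold changes of the shared and the single-gene probe was not tested. Sequences of the probes were not used here, so which transcripts each probe binds was not examined.

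**Figure D4:**
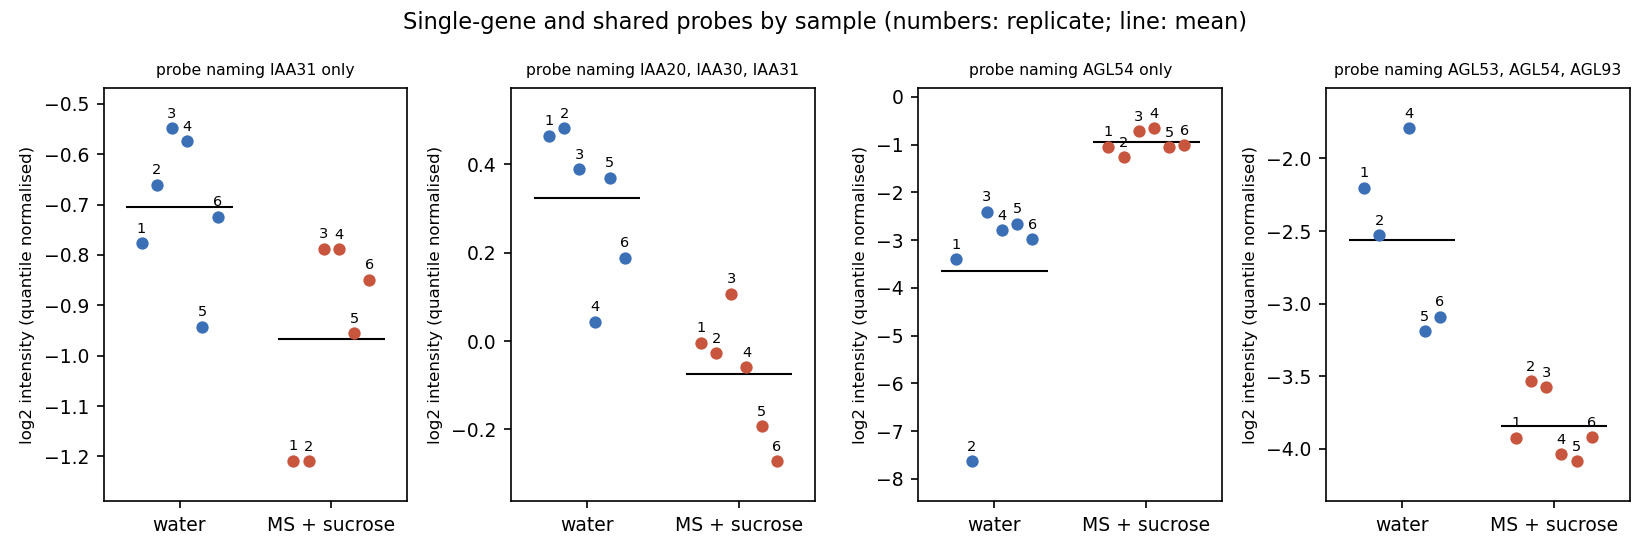
Normalised log2 intensity by sample for the probes naming IAA31 or AGL54 alone and for the probes naming them together with relatives, with points numbered by replicate, lines at the group means and a separate vertical scale in each panel. The probe naming AGL54 alone has a log2 fold change of 2.69 and the probe it shares with AGL53 and AGL93 one of -1.28, while both IAA31 probes are lower in sucrose medium on this scale, though not without scaling.

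Few other genes of the same families or pathways could be read on probes of their own. For LAS, 0 of the other loci in a list of 33 GRAS genes and 0 of the others in a list of 15 axillary meristem regulators, among them CUC1, CUC2, CUC3, RAX1 and STM, were on such a probe. For IAA31, 0 of the other loci in a list of 29 Aux/IAA genes and 0 of 26 auxin receptors, response factors, carriers and response genes were. Of 100 MADS-domain genes, AGL26 and AGL103 were measured besides AGL54. AGL26 had a deposited intensity of 0.542 ± 0.057 in water and 0.818 ± 0.036 in sucrose medium (SD, n = 6 each), and its normalised log2 fold change was -0.33 ± 0.08 (SE), past the threshold (limma, adjusted p = 0.00204). AGL103 was at 0.368 ± 0.051 and 0.728 ± 0.064, and its log2 fold change after normalisation, -0.10 ± 0.09 (SE), did not pass (limma, adjusted p = 0.343). Without scaling AGL26 was at 0.60 and AGL103 at 0.99, below the median of 1.09 over all tested probes. AGL103 was past the threshold as lower with median centring (-0.27, adjusted p = 0.0143; range over all alternatives 9.81e-07 to 0.873) and at 0.017 with the straight line, while AGL26 missed it with averaged samples (adjusted p = 0.0507). How far either gene differed from AGL54 was not tested.

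The genes whose normalised log2 intensity ran most like each member over the 12 samples were taken from 563 genes on probes naming 1 gene with all values above 0. The samples form 2 groups and were scaled together, so the correlation over 12 samples carries the group difference, together with any sample that lies far apart. For LAS these genes were UBA1A (AT2G22090), which encodes an RNA-binding protein, AT4G31210 and AT2G46850, with Pearson correlations of 0.966, 0.964 and 0.963. Their log2 fold changes were 1.14, 1.84 and 1.11. Within the 6 sucrose samples they correlated with LAS at 0.838, 0.902 and 0.849, and within the 6 water samples at 0.679, 0.017 and 0.690.

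For IAA31 the genes were AT5G04600, AT5G19050 and AT4G24160, the homologue of a lipid droplet regulator, at 0.885, 0.869 and 0.868. Their log2 fold changes were -0.60, -1.39 and -1.92, but without scaling 0.70, -0.15 and -0.44, the latter pair not past the threshold (limma, adjusted p = 0.716 and 0.532). AT4G24160 also missed the threshold with averaged samples (adjusted p = 0.114) and without sucrose replicate 2 (adjusted p = 0.0534), and was at -1.32 without sucrose replicate 1. Within sucrose medium they correlated with IAA31 at 0.830, 0.894 and 0.924, and within water at 0.933, 0.666 and 0.458. For AGL54 they were AT4G16060, AT4G23110 and AT4G20760, at 0.954, 0.929 and 0.925, with log2 fold changes of 0.99, 0.75 and 0.54. AT4G23110 was not past the threshold (limma, adjusted p = 0.0804), but passed at 0.38 without water replicate 2. Within water their correlations with AGL54 were 0.963, 0.968 and 0.887, but within sucrose medium -0.141, -0.152 and 0.394. The water values of AGL54 include the very low replicate 2, which weighs heavily in the water correlations and also enters those over 12 samples. Without that sample the log2 fold changes of AT4G16060 and AT4G20760 were 0.79 and 0.46. The correlations without it were not examined, so likeness to AGL54 in the response to sucrose medium cannot be read from them.

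Among themselves the 3 members varied differently within a group. In sucrose medium AGL54 and IAA31 correlated at 0.811, LAS and AGL54 at 0.510, and LAS and IAA31 at 0.018 (Pearson, 6 samples each). In water the same pairs correlated at -0.095, 0.096 and 0.486. In sucrose medium AGL54 and IAA31 were lowest in replicate 2, and LAS in replicate 5.

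**Figure D5:**
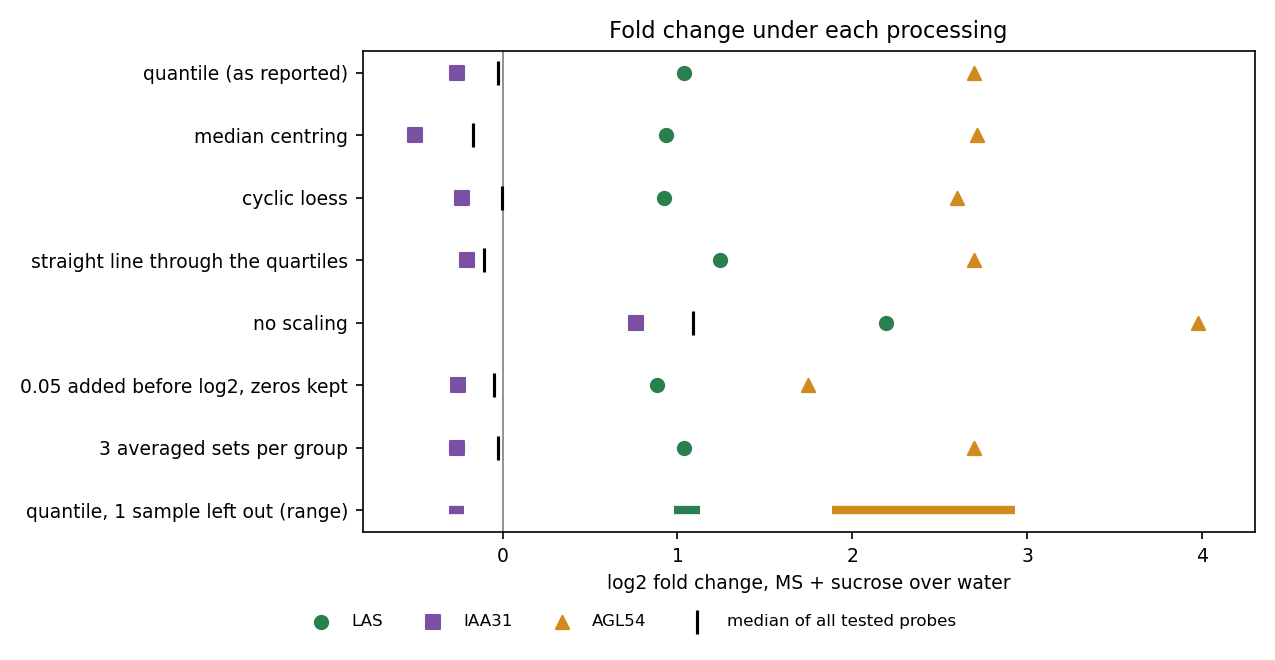
Log2 fold change of sucrose medium over water for LAS, IAA31 and AGL54 under each way of processing, with vertical ticks at the median over all tested probes and bars for the range when 1 sample at a time was left out. LAS and AGL54 lie above 0 throughout and above each tick, and IAA31 lies below each tick and is above 0 only without scaling, at 0.76.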

How the data were processed

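The deposited table holds, for each probe, a linear intensity in each of the 12 samples, as made by the authors. Background correction, scaling and labelling are not given in the sources used here. Groups and replicate numbers came from the sample titles, which give no sets of replicates. Averaged samples are means over sets of consecutive replicate numbers, a choice made here. Intensities were transformed to log2, with 0 as missing, and quantile normalised. A probe needed 4 or more values above 0 per group to be tested, which left out 524. The test was limma's moderated test (version 3.58.1; R 4.3.3), two-sided and without a block. Figures were drawn with matplotlib 3.10.9. Probe genes follow GEO's platform annotation, of some age, matched by gene identifier to TAIR10.1; 692 probes name 1 gene, 870 several and 1877 were not listed. The members and gene lists were chosen with earlier results of these data known. Named genes were the members, the 3 genes most like each by Pearson correlation, and up to 4 measured genes of each related list.

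Same-numbered samples of the groups deviated together from their group means in all 6 pairs (correlations 0.280 to 0.450 over 2805 probes), and samples with numbers from other sets (1 and 2, 3 and 4, 5 and 6) correlated at -0.290 to 0.045. These sets were formed here from consecutive numbers and do not come from the labels. Samples with different numbers of the same set were not compared, so this check cannot tell pairs by number from sets that share a deviation. The numbers were taken to pair samples on this limited evidence, and not from the labels. The reported fit has no block, and fits with the pairs as a block are alternatives. On simulated data for the comparison of sucrose medium with water (2915 probes, 200 changed), the fit recovered 47.0%, 85.5% and 94.5% of log2 changes of 0.5, 1 and 2, with 4, 17 and 18 false calls. The simulated samples were independent, with no deviation shared by number and no difference in array scale, and as many probes were raised as lowered. In the data 64.4% of the probes passed the threshold, so these rates need not hold for the comparison reported here.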

Additional observations from a re-analysis of the deposited data

Results flagged for a closer look

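AGL54 in water replicate 2 lay apart from the other water samples, at a normalised log2 intensity of -7.63 against -3.40 to -2.41 in the other 5. Its deposited intensity there was 0.00216, the rank 2 from the dimmest of 2805 probes in that array. The gap to the nearest sample was 0.810 of the range of the group, above Dixon's critical value for 6 samples. Of 9 groups examined for the 3 genes and their shared probes, this was the only one past the limit, and chance passes it in about 1 of 20 groups. Over all 2805 probes, water replicate 2 lay apart below its group for 0.784%, and the other water samples for 0.428% to 0.963%. LAS and IAA31 in the same sample, at -1.88 and -0.66, lay within the range of their groups.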

How the results depend on the processing

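Of 26 alternatives, 23 were fits over all probes and the rest exact permutation tests of 1 gene, whose p-values were not adjusted. LAS and AGL54 kept direction and call in all 26. With averaged samples their adjusted p was 0.00507 and 0.0263 (limma). Their log2 fold changes over samples left out in turn were 0.98 to 1.13 and 1.88 to 2.93. IAA31 kept both in 14, the unadjusted permutation tests among them, fell short of the threshold in 11 and changed sign in 1. Its value was 0.76 unscaled (limma, adjusted p = 5.78e-06), -0.50 with median centring (adjusted p = 0.000568) and -0.23 by cyclic loess (adjusted p = 0.0682). It was -0.26 with averaged samples, -0.21 with the straight line through the quartiles, and -0.30 to -0.22 over samples left out. The straight line and the permutation within pairs were chosen after seeing the data. The probes shared by IAA20, IAA30 and IAA31 and by AGL53, AGL54 and AGL93 were at 0.10 and 0.13 without scaling, AGL26 at 0.60, AGL103 at 0.99 and AT5G04600 at 0.70; with the straight line AGL103 was at 0.017. The cause of these changes was not tested. With a fixed replicate block LAS, AGL54 and IAA31 were at 1.04, 2.69 and -0.26 (limma, adjusted p = 2.18e-05, 0.00586 and 0.0291), and the block, fixed or random, changed no call of the named genes or the shared probes except LHB1B2, which then passed. The count of probes that differ was 1878, 1366 with averaged samples and 2380 without scaling, where 90.5% of them were higher, against 48.9%. Depth is unknown for these intensities, and signal over background was not available for judging dim probes such as AGL54 in water.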
